A study of Mus musculus with 19 samples.

Results

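The genes described here are 68 protein-coding axon guidance genes: the semaphorins of classes 3 to 7, the plexins and neuropilins, the ephrins and Eph receptors, the Slits and Robos, and the netrins and Unc5 receptors. The rule that picks them uses mouse gene symbols and no measured value, although the set was proposed with earlier results of these data known. They stand among 51707 genes summed from the deposited transcript tables, 21777 of them protein-coding. Of the 68, 35 encode ligands and 33 encode receptors. The question put to them was which of 2 sorted cell populations of a pancreatic tumour carries the RNA of each ligand and of each receptor, and whether neratinib changed it.

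The tumours grew in C57BL/6J mice whose pancreas had received organoids labelled T-LOH KPC. KPC is the usual name of a mouse model of pancreatic ductal adenocarcinoma. The mice were given neratinib, an irreversible inhibitor of the ERBB receptor tyrosine kinases, or vehicle for 2 weeks, and every group carries the same tumour model in the same host strain. Cells sorted for podoplanin (PDPN+, described in the series as cancer-associated fibroblasts) gave 4 libraries from vehicle mice and 4 from neratinib mice, and cells sorted for EpCAM (EpCAM+, epithelial cells) gave 6 and 5. Titles carry 11 numbers that are read here as mice: 8 gave both populations and 3 gave EpCAM+ cells only. Below, each mouse has V (vehicle) or N (neratinib) in front of its number. The sources used here do not give sex, age or the number of organoid lines. Since nothing states that each library is a separate animal, p-values measure the spread between these libraries.

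Guidance ligands were first studied as cues that attract or repel growing axons, and the same molecules act on endothelial, epithelial and mesenchymal cells. Secreted class 3 semaphorins bind neuropilins, which signal through A-type plexins, whereas most membrane-bound semaphorins bind plexins directly, and Sema3e can bind plexin D1 without a neuropilin. Ephrin-A ligands are held at the membrane by a lipid anchor and ephrin-B ligands by a transmembrane domain, so both need contact between cells, and each type mainly binds the Eph receptors of its own letter. Slits are large secreted proteins that bind Robo receptors, and netrins are laminin-related secreted proteins that bind Dcc, neogenin and Unc5 receptors.

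PDPN+ libraries held 30.3 to 48.1 M gene reads and EpCAM+ libraries 39.4 to 75.4 M, and mitochondrial genes took 6.14 to 19.45% and 2.15 to 2.89% of them. The sort was visible in its own markers. Pdpn lay between 200 and 418 TPM (transcripts per unit of library, a level scaled for transcript length and depth) in PDPN+ and between 0.349 and 2.52 TPM in EpCAM+ libraries, and Epcam between 0 and 0.540 TPM and between 114 and 897 TPM. The summed level of 10 fibroblast markers was 6746 to 10431 TPM in PDPN+ and 10.5 to 106 TPM in EpCAM+ libraries. The PDPN+ libraries also held keratin RNA (the 9 epithelial markers summed to 286 to 1203 TPM, against 18044 to 24702 TPM in EpCAM+), while Esrp1, an epithelial splicing regulator, stayed at or below 0.0256 TPM. The 5 mesothelial markers summed to 273 to 1129 TPM in PDPN+ and 1669 to 3022 TPM in EpCAM+ libraries, but Upk3b among them lay at 91.3 to 341 and 0.0352 to 5.71 TPM. In the population test described below, 3 of the 5 were higher in PDPN+ cells, 1 was lower and 1 did not pass. Over all genes 24.3% were higher and 25.0% lower. In bulk libraries, fewer cells of a type and less RNA per cell cannot be told apart. On transcriptome-wide values, 3 EpCAM+ libraries (vehicle mice V53175 and V53176, neratinib mouse N53178) and 2 PDPN+ libraries (vehicle mice V53175 and V53188) had been set apart, and the population counts below are also given without them. The 2 PDPN+ libraries had 12057 and 11876 genes with at least 10 reads, against 13642 to 18552 in the other 6.

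Summed over all 68 genes, guidance RNA came to 370 to 647 TPM in PDPN+ and 551 to 1107 TPM in EpCAM+ libraries. At a mean of at least 1 TPM, 32 genes were present in both populations, 14 in PDPN+ cells only, 5 in EpCAM+ cells only and 17 in neither. Leaving out 1 library moved the PDPN+ mean of 12 genes and the EpCAM+ mean of 2 genes across this level. The 14 were 8 ligands and 6 receptors, and the 5 were 4 ligands (Sema4d, Sema4f, Sema4g and Slit1) and 1 receptor (Epha7). The place of Epha7 rested on single libraries in both populations. Its EpCAM+ mean was 0.988 TPM without the vehicle library of mouse V53185. Its PDPN+ mean was 1.007 TPM without the neratinib library of mouse N53184. Epha7 did not pass the population test described below. Within PDPN+ cells the mean levels ran from Plxnb2 (141 TPM) through Efna5 (63.4 TPM), Slit3 (59.1 TPM), Nrp1 (19.9 TPM), Efna1 (19.8 TPM) and Efnb1 (17.9 TPM). Within EpCAM+ cells the order was Plxnb2 (202 TPM), Efna1 (159 TPM), Sema4a (82.5 TPM), Epha2 (66.8 TPM), Sema3e (42.4 TPM) and Efna4 (39.5 TPM). Neighbours in the PDPN+ order overlapped over libraries: Efna5 ran from 13.3 to 122 TPM and Slit3 from 27.9 to 82.5 TPM. PDPN+ libraries varied more: 20 of the 58 genes that reached 1 TPM in some PDPN+ library had 0 reads in another, against 1 of 44 in EpCAM+ libraries. A library with 0 reads allows up to 3 reads, or 0.0376 to 0.110 CPM (reads scaled to the library total) over the deepest and shallowest library, for counting error only.

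**Figure D1:**
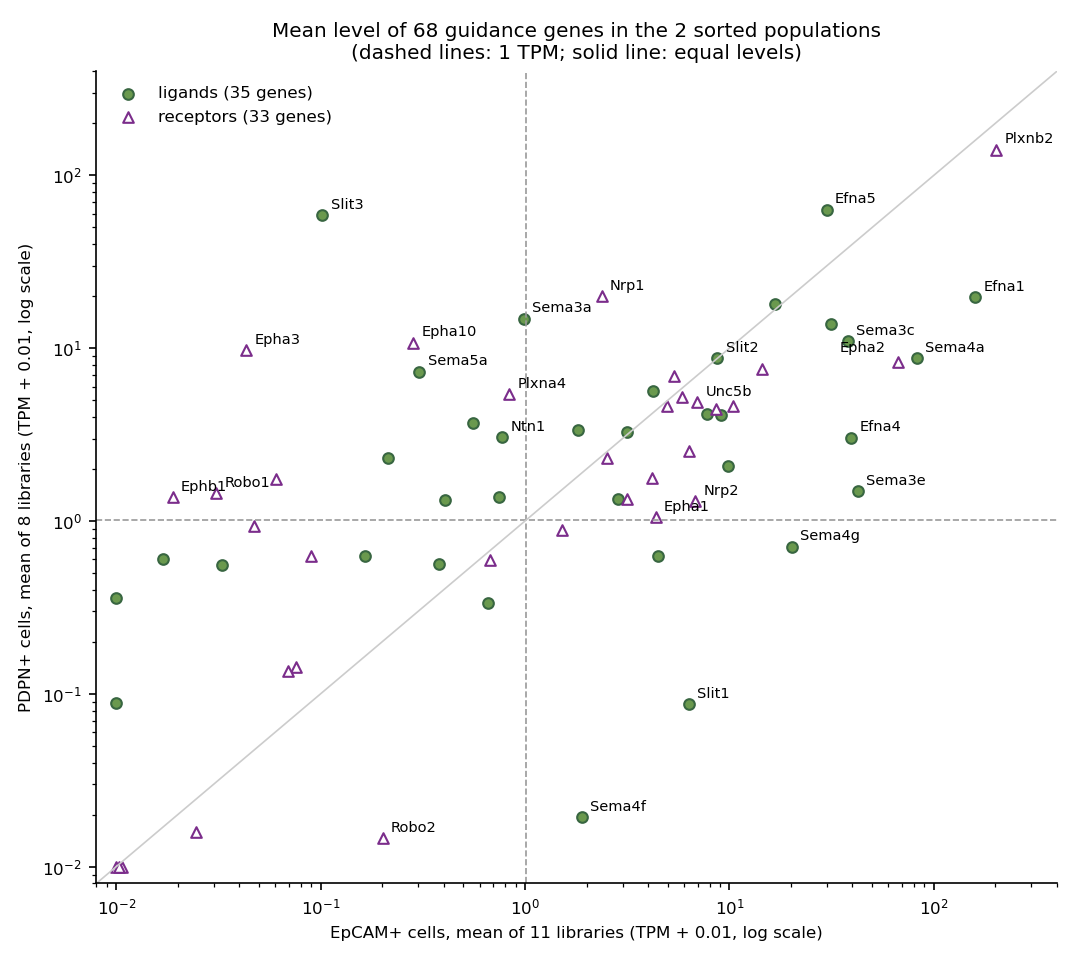
Mean level of each of the 68 genes in EpCAM+ cells (horizontal, 11 libraries) and PDPN+ cells (vertical, 8 libraries), in TPM plus 0.01 on log axes; filled circles are ligands and open triangles receptors. Slit3 (59.1 TPM in PDPN+ cells) and Slit1 (6.31 TPM in EpCAM+ cells) lie far from the line of equal levels on opposite sides, and Slit2 lies near it.

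The populations were compared with edgeR's quasi-likelihood test on estimated counts, with Benjamini-Hochberg adjustment over all 19626 genes tested and a threshold of 0.05. A positive log2 difference means more RNA in PDPN+ cells. Of the 62 guidance genes tested, 20 were higher in PDPN+ cells (32.3%, beside a background of 24.3% of all genes), 17 were lower (27.4%, background 25.0%) and 25 did not pass. Both shares were near the background, and the median log2 difference was 0.03 for the guidance genes and -0.13 for all genes. By role, 12 ligands were higher and 12 lower of 33 tested, and 8 receptors were higher and 5 lower of 29 tested. With the mouse number as a block, 13 of the 20 and 13 of the 17 kept their call (background 13.6% higher and 22.0% lower). That fit used only the 8 mice with both populations and left out the EpCAM+ libraries of mice V53176, V53192 and N53193. Robo2 was not tested in it, so lost calls there do not reflect the pairing alone. On log2(TPM + 1) with limma, 11 of 50 tested were higher and 24 lower (background 17.7% and 48.1%). On that scale the median of all genes lay at -0.63. Its filter on low levels left Ephb1, Ntn3, Ntn4, Plxnc1, Sema3g, Sema6c and Unc5a untested. Ntn1 and Sema3f were tested and were no longer higher. Without the 3 EpCAM+ libraries set apart, 17 were higher (background 22.9%) and 15 lower (background 22.6%), and Ntn1, Ntn4, Sema3f, Efnb2, Epha1 and Sema3c did not pass. Without the 2 PDPN+ libraries set apart, 21 were higher (background 24.6%) and 17 lower (background 25.9%), and Sema3f and Sema4b did not pass. With a digit of the deposited file names as a covariate, 13 were higher (background 11.6%) and 6 lower (background 9.85%). In that model only 1 digit holds both populations, with 2 PDPN+ and 5 EpCAM+ libraries. Ntn1, Ntn3, Ntn4, Plxnc1, Robo1, Sema3f and Sema6b were no longer higher in it, and Efna3, Efna4, Efnb2, Epha1, Epha2, Nrp2, Plxnb2, Sema3c, Sema3e, Sema4b and Sema4d no longer lower. In 3 genes (4.84%, background 5.55%) every PDPN+ library lay above every EpCAM+ library in TPM, and in 10 (16.1%, background 16.6%) every PDPN+ library lay below.

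**Figure D2:**
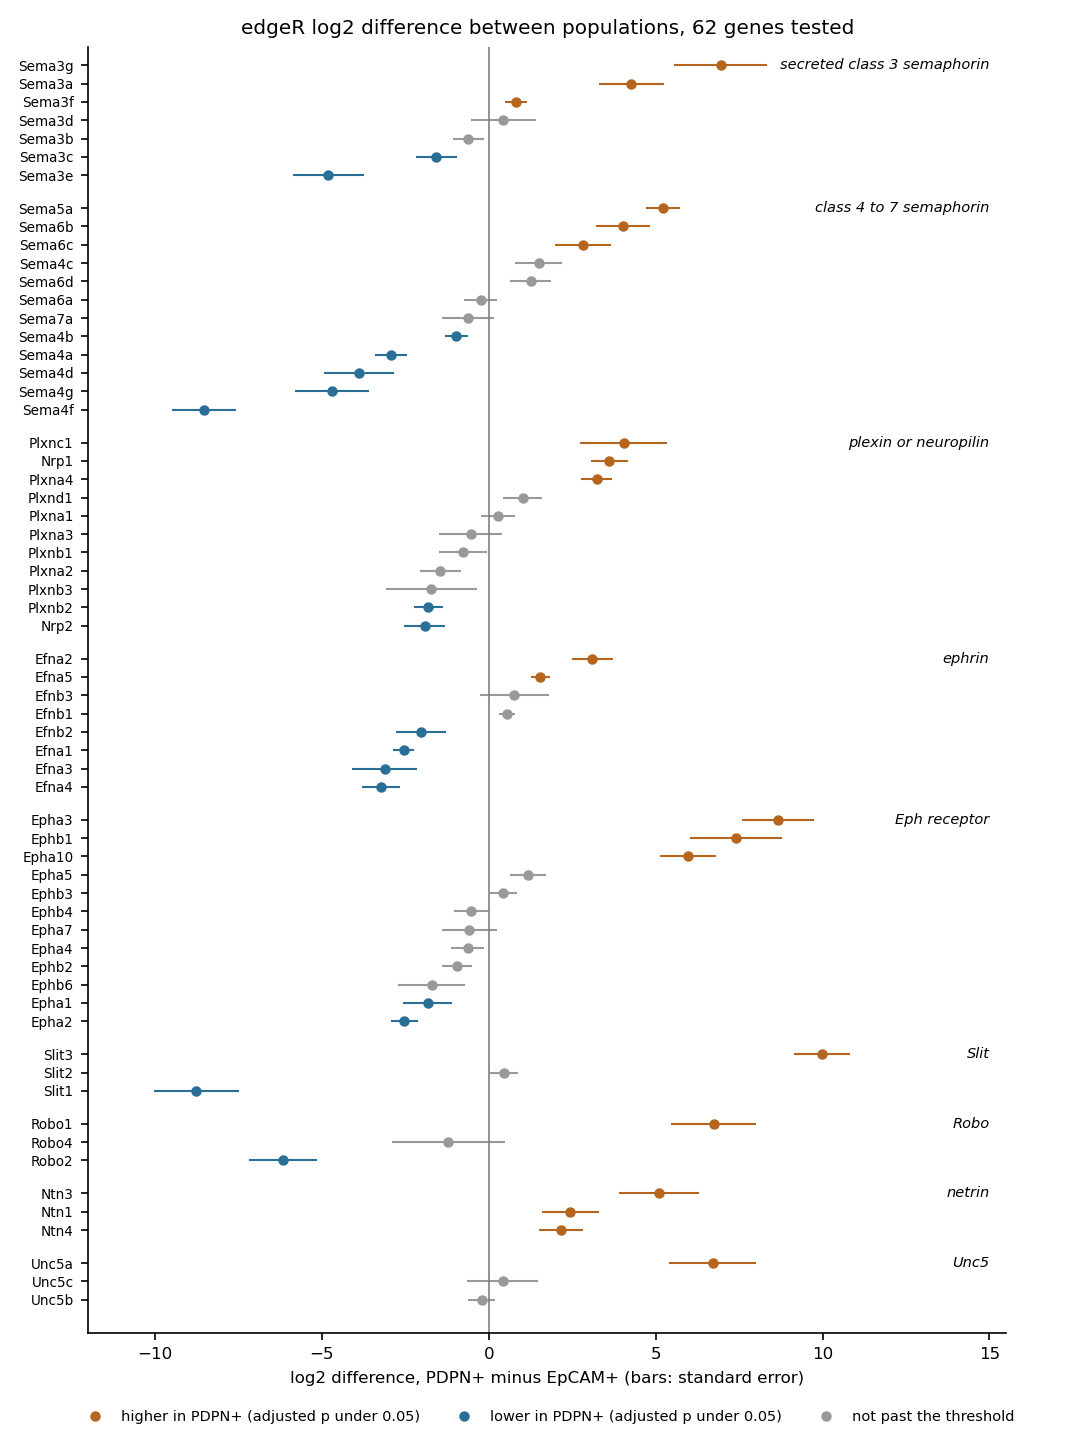
Log2 difference between populations (PDPN+ minus EpCAM+, edgeR) with its standard error for the 62 guidance genes tested, by family. In the class 3 semaphorins, ephrins, Eph receptors, Slits and Robos, members past the threshold lie on both sides of 0, and the 3 netrins tested lie on the PDPN+ side.

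The 3 Slit genes had 3 different distributions. Slit3 was read in PDPN+ vehicle libraries at 66.3, 58.3, 69.6 and 27.9 TPM (mice V53175, V53179, V53185 and V53188) and in PDPN+ neratinib libraries at 82.5, 46.7, 72.0 and 49.7 TPM (mice N53178, N53180, N53184 and N53194). In the 11 EpCAM+ libraries Slit3 ran from 0 through a median of 0.0221 to 0.352 TPM. All 8 PDPN+ libraries lay above all 11 EpCAM+ libraries, and the log2 difference was 9.98 ± 0.83 (SE; edgeR adjusted p = 1.5e-08). Slit1 was the reverse: EpCAM+ vehicle libraries held 5.16, 3.85, 15.2, 5.93, 4.69 and 3.68 TPM (mice V53175, V53176, V53179, V53185, V53188 and V53192) and EpCAM+ neratinib libraries 4.98, 6.04, 8.73, 6.10 and 5.09 TPM (mice N53178, N53180, N53184, N53193 and N53194). Of the PDPN+ libraries 6 had 0 Slit1 reads, and the other 2, both vehicle, held 0.561 and 0.0576 TPM. The log2 difference of Slit1 was -8.76 ± 1.28 (edgeR adjusted p = 3.5e-05), with no overlap of libraries. Slit2 was present in both, with 3.10, 7.04 and 19.8 TPM as the lowest, median and highest PDPN+ library and 1.26, 8.83 and 14.9 TPM in EpCAM+ libraries. Its log2 difference of 0.45 ± 0.41 did not pass (edgeR adjusted p = 0.39).

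The Robo receptors were low throughout. Robo1 reached 2.42, 0.0694, 1.42 and 0.131 TPM in the PDPN+ vehicle libraries of mice V53175, V53179, V53185 and V53188, and 0.695, 5.35, 1.36 and 0.0364 TPM in the neratinib libraries of mice N53178, N53180, N53184 and N53194. No EpCAM+ library exceeded 0.0792 TPM, and 4 of 11 had 0 reads. Robo1 RNA was higher in PDPN+ cells by a log2 difference of 6.74 ± 1.27 (edgeR adjusted p = 2.3e-04), although 2 PDPN+ libraries lay within the EpCAM+ range. Robo2, the gene next to Robo1 on chromosome 16, had reads in 1 of 8 PDPN+ libraries and in all 11 EpCAM+ libraries, but never above 0.710 TPM. Its log2 difference was -6.15 ± 1.02 (edgeR adjusted p = 1.2e-04). The islet markers summed to 3190, 4624 and 1723 TPM in the EpCAM+ libraries of mice V53175, V53176 and N53178, where Robo2 was 0.451, 0.0459 and 0.710 TPM. The EpCAM+ library of mouse N53193 held 0.528 TPM of Robo2 with an islet sum of 187 TPM, and the part of islet cells in its level was not tested. Robo4, an endothelial member, was found in PDPN+ cells only in the vehicle library of mouse V53179 (4.91 TPM), the library with the highest sum of 10 blood endothelial markers (103 TPM, against 18.9 to 89.6 TPM in the others). The PDPN+ libraries of mice N53180 and N53194 summed to 89.6 and 83.3 TPM of these markers and had 0 Robo4 reads. The part of endothelial cells in the Robo4 level was not tested.

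**Figure D3:**
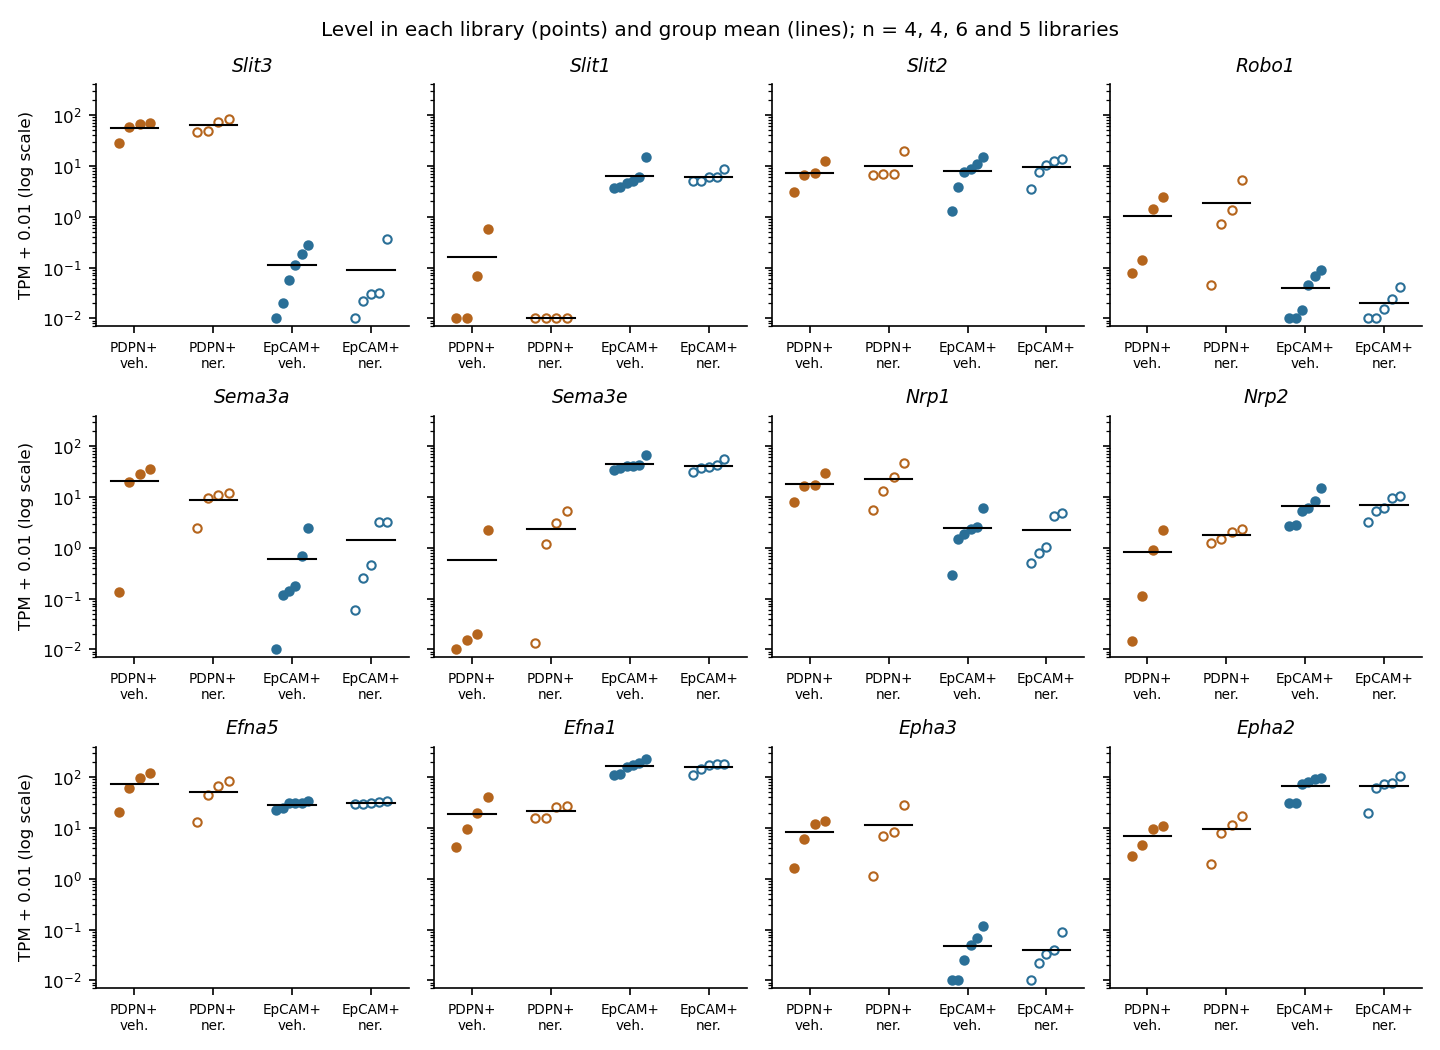
TPM plus 0.01 (log axis) of 12 guidance genes in each library, with PDPN+ in brown, EpCAM+ in blue, vehicle filled and neratinib open; points are ordered by value within a group and lines are group means. Slit3 and Epha3 lie above 1 TPM in every PDPN+ library and below 1 TPM in every EpCAM+ library, while Efna1, Epha2, Sema3e and Slit1 lie the other way with no overlap.

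Among the 7 secreted class 3 semaphorins, 3 were higher in PDPN+ cells, 2 were lower and 2 did not pass. Sema3a, which repels axons and endothelial cells through neuropilin-1, was read in PDPN+ vehicle libraries at 0.128, 35.9, 19.3 and 28.6 TPM (mice V53175, V53179, V53185 and V53188) and in PDPN+ neratinib libraries at 2.40, 11.9, 9.58 and 10.9 TPM (mice N53178, N53180, N53184 and N53194). EpCAM+ libraries held between 0 and 3.27 TPM, with a median of 0.241 TPM. In PDPN+ cells 6 libraries lay above the EpCAM+ range, and those of mice V53175 and N53178 lay within it. The log2 difference of Sema3a was 4.27 ± 0.96 (edgeR adjusted p = 1.1e-03). Sema3e had the opposite distribution, at 31.0, 40.7 and 67.1 TPM as the lowest, median and highest EpCAM+ library. PDPN+ vehicle libraries held 0, 0.00984, 2.25 and 0.00551 TPM, and PDPN+ neratinib libraries 5.27, 1.17, 0.00346 and 3.06 TPM, in the same order of mice as for Sema3a. No libraries overlapped, and the log2 difference was -4.80 ± 1.06 (edgeR adjusted p = 9.3e-04). With the file name digit as a covariate it was -1.56 (adjusted p = 0.60). The highest PDPN+ value of Sema3e came from the library with the lowest sum of epithelial markers (286 TPM, neratinib mouse N53178). That library also held 900 TPM of 5 lymphatic endothelial markers. The PDPN+ library of mouse V53188 had an epithelial sum of 309 TPM and held 0.00551 TPM of Sema3e. The part of epithelial or other cells in these values was not tested.

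Sema3a and Sema3e lie on the same strand of mouse chromosome 5 with 3 protein-coding genes between them. Their upstream sequences are shown because these near neighbours differed in opposite directions between the populations. The 250 bases before each RefSeq start (GRCm38.p6), chr5:13396534-13396783 for Sema3a and chr5:14025026-14025275 for Sema3e, are printed 5′ to 3′ on the plus strand with CpG dinucleotides in capitals:
Sema3a: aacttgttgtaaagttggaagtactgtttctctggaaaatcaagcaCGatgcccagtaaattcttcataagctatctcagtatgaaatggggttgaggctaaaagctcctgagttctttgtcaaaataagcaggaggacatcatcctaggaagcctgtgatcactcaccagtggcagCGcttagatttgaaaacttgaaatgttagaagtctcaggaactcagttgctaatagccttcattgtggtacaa
Sema3e: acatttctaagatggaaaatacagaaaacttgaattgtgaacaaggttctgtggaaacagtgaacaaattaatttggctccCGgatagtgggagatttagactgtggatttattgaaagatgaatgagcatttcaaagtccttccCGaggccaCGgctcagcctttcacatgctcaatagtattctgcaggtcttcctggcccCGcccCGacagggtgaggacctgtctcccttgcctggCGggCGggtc
The Sema3a stretch held 2 CpG and 40.8% G and C, and the Sema3e stretch 7 CpG and 48.0% G and C. The median over 32851 RefSeq promoters of this length was 6 CpG and 52.4%. RefSeq promoters were matched for 59 of the 68 genes, and the median CpG count was 16 over the 19 promoters of genes higher in PDPN+ cells and 13 over the 27 promoters of genes lower there, a description with no test.

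The other class 3 members were less separated. Sema3c, a ligand of both neuropilins, had a lowest, median and highest level of 24.1, 35.6 and 67.6 TPM in EpCAM+ libraries and 0.00687, 8.81 and 31.8 TPM in PDPN+ libraries. Its log2 difference was -1.57 ± 0.62 (edgeR adjusted p = 0.044; 0.13 with the mouse block and 0.13 without the 3 EpCAM+ libraries set apart), and leaving out any of 12 of the 19 libraries took the adjusted p to between 0.052 and 0.070. Sema3f passed in the PDPN+ direction (0.82 ± 0.33, edgeR adjusted p = 0.046), but its median was 4.04 TPM in PDPN+ and 4.36 TPM in EpCAM+ libraries. The PDPN+ vehicle library of mouse V53175 held 18.4 TPM of it, and without that library the log2 difference was 0.59 (edgeR adjusted p = 0.13). The call was lost on leaving out any of 14 libraries and with the mouse block (adjusted p = 0.37), and without the 2 PDPN+ libraries set apart the log2 difference was 0.44 (adjusted p = 0.25). Sema3g passed at 6.95 ± 1.40 (edgeR adjusted p = 4.2e-04) with a highest PDPN+ library of 2.65 TPM. Sema3b and Sema3d did not pass, with log2 differences of -0.61 ± 0.47 and 0.44 ± 0.98.

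The neuropilins divided like the class 3 ligands. Nrp1 held 8.09, 16.7, 29.4 and 17.1 TPM in PDPN+ vehicle libraries (mice V53175, V53179, V53185 and V53188) and 12.9, 45.5, 24.3 and 5.64 TPM in PDPN+ neratinib libraries (mice N53178, N53180, N53184 and N53194). EpCAM+ libraries ran from 0.277 through 1.83 to 6.12 TPM, so that only the PDPN+ library of mouse N53194 fell inside their range. The log2 difference of Nrp1 was 3.61 ± 0.56 (edgeR adjusted p = 2.9e-05). Nrp2 ran from 2.69 through 5.99 to 15.1 TPM in EpCAM+ and from 0.00493 through 1.35 to 2.35 TPM in PDPN+ libraries, with no overlap. Its log2 difference was -1.92 ± 0.62 (edgeR adjusted p = 0.015).

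Of the 9 plexins, Plxna4 and Plxnc1 were higher in PDPN+ cells, Plxnb2 was lower on counts, and 6 did not pass. Plxna4, a signalling partner of neuropilin-1 and a receptor of class 6 semaphorins, held 13.5, 7.35, 5.18 and 2.33 TPM in PDPN+ vehicle libraries (mice V53175, V53179, V53185 and V53188) and 3.58, 0.600, 3.90 and 6.83 TPM in neratinib libraries (mice N53178, N53180, N53184 and N53194). EpCAM+ libraries held 0.262 to 1.72 TPM, and 7 of 8 PDPN+ libraries lay above them. The log2 difference of Plxna4 was 3.24 ± 0.46 (edgeR adjusted p = 1.1e-05). Plxnc1, the receptor of Sema7a, rested on single libraries. It read 10.3 TPM in the PDPN+ neratinib library of mouse N53178, 2.06 and 1.53 TPM in the vehicle libraries of mice V53185 and V53179, and at most 0.0349 TPM in the other 5. The log2 difference of 4.05 ± 1.30 (edgeR adjusted p = 0.015) became 0.76 without the library of mouse N53178 (adjusted p = 0.58) and 0.08 with the mouse block (adjusted p = 1.0). That library also held the highest sum of 5 lymphatic endothelial markers, 900 TPM against 0.679 to 79.5 TPM in the other PDPN+ libraries, and the part of lymphatic cells in it was not tested.

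Plxnb2, a receptor of class 4 semaphorins, had the highest mean level of all 68 genes in both populations. Efna5 lay above it in the PDPN+ libraries of mice V53175 (95.2 against 71.0 TPM) and V53179 (122 against 109 TPM). Efna1 lay above it in the EpCAM+ libraries of mice V53175, V53176 and N53178 (111, 155 and 180 against 100, 104 and 104 TPM). Plxnb2 ran from 71.0 through 133 to 189 TPM in PDPN+ and from 100 through 232 to 279 TPM in EpCAM+ libraries, and the ranges overlapped. On counts its log2 difference was -1.82 ± 0.44 (edgeR adjusted p = 2.0e-03). With an offset for the mean effective transcript length of the gene in each library, it was -0.06 (edgeR adjusted p = 0.84). The transcript estimates differed in the same way. The 834-base processed transcript Plxnb2-205 took 55.6 to 96.3% of the Plxnb2 TPM in PDPN+ libraries and 25.5 to 57.0% in EpCAM+ libraries. It held 108 TPM of the PDPN+ mean of 141 TPM, and the rank of Plxnb2 in PDPN+ cells rests on it. The 6497-base coding transcript Plxnb2-202 took 0 to 10.4% and 12.8 to 69.7%. Both end at the same 3′ position in the annotation, so a read near that end can belong to either. The 3 EpCAM+ libraries set apart above held 54.0 to 57.0% for Plxnb2-205, above the other 8 (25.5 to 38.4%) and around the lowest PDPN+ library (55.6%, vehicle mouse V53188). For Plxnb2-202 they held 12.8 to 15.8%, above the PDPN+ libraries and below the other 8 (58.1 to 69.7%).

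**Figure D4:**
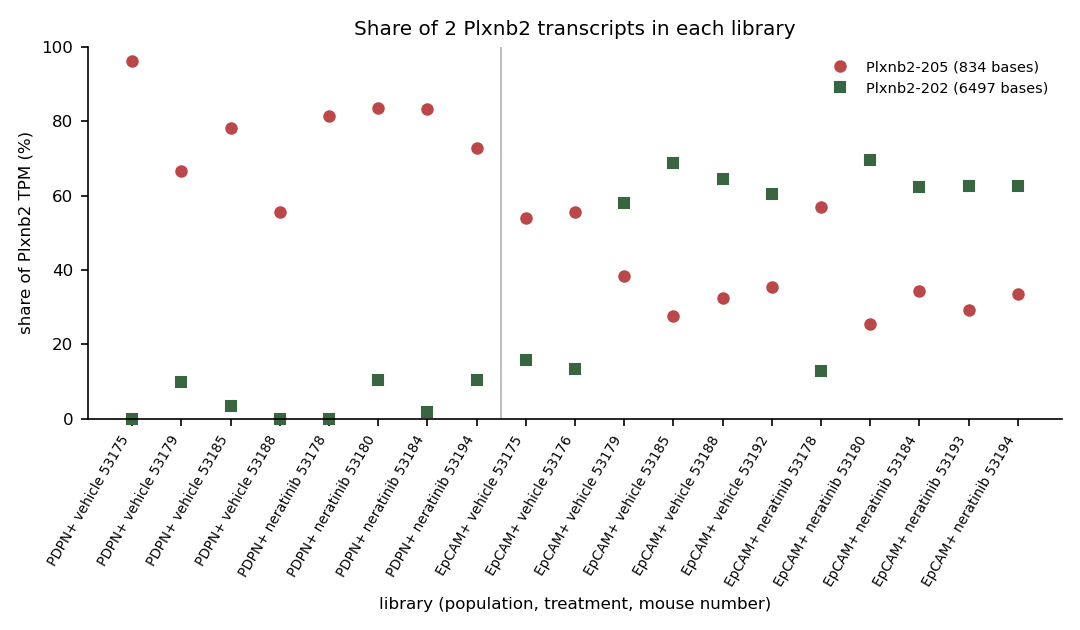
Share of the Plxnb2 level (percent of its TPM) that was assigned to the short transcript Plxnb2-205 (circles) and to the coding transcript Plxnb2-202 (squares) in each of the 19 libraries. Plxnb2-205 leads in all 8 PDPN+ libraries and in 3 EpCAM+ libraries, and Plxnb2-202 leads in the other 8 EpCAM+ libraries.

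Transcripts under 1000 bases took 23.4 to 43.1% of all guidance TPM in PDPN+ libraries and 12.1 to 18.3% in EpCAM+ libraries. Without Plxnb2 the shares were 5.29 to 19.4% and 2.81 to 8.78%, and these ranges overlapped. Of the 32 genes present in both populations, 8 had a different leading transcript in each, taken by mean TPM. It was shorter in PDPN+ cells for 5 (Plxnb2, Ephb6, Efna3, Epha4 and Plxna2) and longer there for 3 (Nrp2, Plxna3 and Slit2). The PDPN+ leader led in all 8 PDPN+ libraries for Plxnb2, but not in every one for Ephb6, Efna3, Epha4, Plxna2, Plxna3 and Slit2. Its median share there was 79.8% for Plxnb2, 86.4% for Ephb6, 21.4% for Plxna2 and 0% for Efna3 and Epha4. For Nrp2, Plxna3 and Slit2 it was 92.2%, 50.1% and 17.3%. In EpCAM+ cells Nrp2-201 took 29.4% of the Nrp2 mean and Nrp2-205, the PDPN+ leader, 25.8%. The EpCAM+ libraries differed in this. In the 3 set apart Nrp2-205 took 62.7 to 78.7% and Nrp2-201 took 0 to 0.766%. In the other 8 they took 12.7 to 29.2% and 23.3 to 42.1%. The leader of Plxna3 had 5561 bases in PDPN+ and 984 bases in EpCAM+ cells. Ephb6, an Eph receptor that lacks kinase activity, was led by the 459-base Ephb6-203 in PDPN+ cells (74.7% of its mean TPM) and by the 3762-base Ephb6-201 in EpCAM+ cells (99.3%). Its log2 difference, which did not pass, was -1.70 on counts and 0.16 with the length offset. Over all guidance genes, the length offset left 19 calls higher (background 24.5%) and 12 lower (background 24.9%), and Epha1, Plxnb2, Sema3c, Sema3f, Sema4b and Sema4d did not pass with it.

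The class 4 to 7 semaphorins are membrane-bound. Of the 12 tested, 3 were higher in PDPN+ cells and 5 were lower, all 5 of them class 4 members. Sema4a had the highest level of the class in EpCAM+ cells. It read 27.5, 24.8, 69.1, 97.2, 101 and 83.7 TPM in EpCAM+ vehicle libraries (mice V53175, V53176, V53179, V53185, V53188 and V53192) and 22.7, 128, 96.6, 159 and 98.1 TPM in neratinib libraries (mice N53178, N53180, N53184, N53193 and N53194). The 3 lowest of these are the 3 libraries set apart above. PDPN+ libraries held 3.61 to 19.8 TPM with no overlap, and the log2 difference was -2.94 ± 0.48 (edgeR adjusted p = 5.6e-05). Sema4g ran from 4.34 through 18.3 to 42.6 TPM in EpCAM+ and from 0 through 0.140 to 3.14 TPM in PDPN+ libraries, again with no overlap (log2 difference -4.69 ± 1.11, edgeR adjusted p = 1.7e-03). Sema4f had 0 reads in 6 of 8 PDPN+ libraries and 0.850 to 3.34 TPM in EpCAM+ libraries (log2 difference -8.53 ± 0.96, edgeR adjusted p = 2.1e-06). Sema4d, the ligand of plexin B1, had a median of 4.76 TPM in EpCAM+ and 0.132 TPM in PDPN+ libraries (log2 difference -3.88 ± 1.05, edgeR adjusted p = 4.6e-03; 0.0503 with the length offset). Sema4b passed at -0.97 ± 0.35 (edgeR adjusted p = 0.029; 0.11 with the mouse block, 0.056 without the EpCAM+ vehicle library of mouse V53179 and 0.057 without the 2 PDPN+ libraries set apart).

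On the PDPN+ side, Sema5a, a semaphorin with thrombospondin repeats, held 6.99, 3.95, 8.07 and 16.0 TPM in vehicle libraries (mice V53175, V53179, V53185 and V53188) and 3.71, 8.45, 4.55 and 6.78 TPM in neratinib libraries (mice N53178, N53180, N53184 and N53194). EpCAM+ libraries held at most 0.515 TPM. The log2 difference was 5.21 ± 0.51 (edgeR adjusted p = 1.3e-07), with no overlap of libraries. Sema6b had a median of 1.48 TPM in PDPN+ and 0.194 TPM in EpCAM+ libraries (log2 difference 4.02 ± 0.80, edgeR adjusted p = 3.7e-04; 0.11 with the mouse block). Sema6c passed at 2.82 ± 0.83 (edgeR adjusted p = 8.3e-03), but without the PDPN+ vehicle library of mouse V53185 its log2 difference was 0.98 (adjusted p = 0.21), and with the mouse block it was 0.99 (adjusted p = 0.56). Sema5b was listed at 0 reads in all EpCAM+ libraries and in 6 PDPN+ libraries, with 0.315 and 2.48 TPM in the vehicle libraries of mice V53185 and V53188. Sema4c, Sema6a, Sema6d and Sema7a did not pass.

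The ephrin-A ligands were shared out between the populations. Efna1, first described as an endothelial gene induced by cytokines, held 111, 155, 190, 173, 226 and 115 TPM in EpCAM+ vehicle libraries (mice V53175, V53176, V53179, V53185, V53188 and V53192) and 180, 171, 110, 144 and 177 TPM in neratinib libraries (mice N53178, N53180, N53184, N53193 and N53194). In PDPN+ libraries it held 9.53, 40.1, 19.9 and 4.27 TPM with vehicle (mice V53175, V53179, V53185 and V53188) and 15.7, 26.9, 25.9 and 15.9 TPM with neratinib (mice N53178, N53180, N53184 and N53194). The ranges did not overlap, and the log2 difference was -2.54 ± 0.31 (edgeR adjusted p = 2.1e-06). Efna1, Efna3 and Efna4 lie next to each other in that order on chromosome 3, with no other protein-coding gene between them, and the other two differed in the same direction. Efna4 ran from 18.6 through 39.9 to 62.6 TPM in EpCAM+ and from 0.0216 through 2.96 to 6.41 TPM in PDPN+ libraries, with no overlap (log2 difference -3.23 ± 0.56, edgeR adjusted p = 1.0e-04). Efna3 ran from 1.17 through 2.39 to 4.98 TPM in EpCAM+ libraries. In PDPN+ cells it was at or below 0.701 TPM in 7 libraries and at 9.78 TPM in the neratinib library of mouse N53178 (log2 difference -3.12 ± 0.97, edgeR adjusted p = 0.012). In vehicle libraries only, the log2 difference of Efna3 was -5.79 (adjusted p = 4.1e-03), in neratinib libraries only it was -0.39 (adjusted p = 0.86), and with the file name digit it was -2.33 (adjusted p = 0.50).

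Efna5 was the ephrin with the highest level in PDPN+ cells. It held 95.2, 122, 61.4 and 20.4 TPM in vehicle libraries (mice V53175, V53179, V53185 and V53188) and 13.3, 67.5, 43.7 and 83.5 TPM in neratinib libraries (mice N53178, N53180, N53184 and N53194), against 22.1 to 33.7 TPM in EpCAM+ libraries. In 6 PDPN+ libraries it lay above all EpCAM+ libraries and in 2 (mice N53178 and V53188) below all of them. The log2 difference was 1.54 ± 0.28 (edgeR adjusted p = 1.7e-04). Efna2 had a median of 3.17 TPM in PDPN+ and 0.431 TPM in EpCAM+ libraries (log2 difference 3.10 ± 0.61, edgeR adjusted p = 3.5e-04), and only the PDPN+ library of mouse V53188 (0.0352 TPM) fell below the EpCAM+ range. Summed over the 5 ephrin-A genes, the level was 27.3 to 171 TPM in PDPN+ and 174 to 285 TPM in EpCAM+ libraries.

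The upstream sequences of Efna1 and Efna5 are shown because they are the ephrin-A genes with the highest level in EpCAM+ and in PDPN+ cells. The 250 bases before each RefSeq start (GRCm38.p6), chr3:89279646-89279895 for Efna1 and chr17:62881318-62881567 for Efna5, are printed 5′ to 3′ on the minus strand, with CpG dinucleotides in capitals:
Efna1: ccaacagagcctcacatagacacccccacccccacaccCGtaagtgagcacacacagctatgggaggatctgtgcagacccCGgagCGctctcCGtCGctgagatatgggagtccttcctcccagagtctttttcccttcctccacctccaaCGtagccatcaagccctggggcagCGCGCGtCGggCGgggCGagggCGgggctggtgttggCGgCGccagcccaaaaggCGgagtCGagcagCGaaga
Efna5: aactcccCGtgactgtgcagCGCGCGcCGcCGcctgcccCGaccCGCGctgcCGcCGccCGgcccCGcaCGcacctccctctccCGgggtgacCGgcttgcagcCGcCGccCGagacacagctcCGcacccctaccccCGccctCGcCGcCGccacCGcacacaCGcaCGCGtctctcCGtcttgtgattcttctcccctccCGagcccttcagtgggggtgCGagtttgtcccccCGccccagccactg
The stretches held 18 and 32 CpG dinucleotides, 64.4% and 74.8% G and C. The motifs CAGGTG, an E-box, and TGANTCA, an AP-1 site, searched on both strands, were in none of the 4 stretches printed, and in 17.2% and 6.75% of all promoters of this length.

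The EphA receptors were also divided. Epha2, an Eph receptor prominent in epithelia, held 31.5, 31.4, 72.0, 96.2, 78.6 and 90.1 TPM in EpCAM+ vehicle libraries (mice V53175, V53176, V53179, V53185, V53188 and V53192) and 19.5, 104, 72.9, 77.3 and 61.4 TPM in neratinib libraries (mice N53178, N53180, N53184, N53193 and N53194). Again the 3 lowest were the 3 libraries set apart. PDPN+ libraries held 1.9 to 17.2 TPM with no overlap, and the log2 difference was -2.54 ± 0.41 (edgeR adjusted p = 4.1e-05). Epha1 lay at 3.26 to 7.25 TPM in EpCAM+ and 0 to 2.81 TPM in PDPN+ libraries. Those ranges did not overlap, but the test was at the threshold (log2 difference -1.83 ± 0.74, edgeR adjusted p = 0.048), and leaving out any of 15 of the 19 libraries took the adjusted p to between 0.051 and 0.071. With the mouse block it was 0.098, and without the 3 EpCAM+ libraries set apart 0.097.

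Epha3, a receptor known from mesenchymal and stromal cells, held 6.04, 13.5, 12.0 and 1.62 TPM in PDPN+ vehicle libraries (mice V53175, V53179, V53185 and V53188) and 28.1, 8.28, 7.08 and 1.13 TPM in neratinib libraries (mice N53178, N53180, N53184 and N53194). The highest EpCAM+ library held 0.108 TPM, so the ranges did not overlap. The log2 difference was 8.67 ± 1.07 (edgeR adjusted p = 2.1e-06). Epha10, an Eph receptor without kinase activity, ran from 0.819 through 11.6 to 22.4 TPM in PDPN+ and from 0 through 0.239 to 0.923 TPM in EpCAM+ libraries. Only the PDPN+ library of mouse V53185 lay inside the EpCAM+ range (log2 difference 5.98 ± 0.84, edgeR adjusted p = 9.5e-06). Epha4, Epha5 and Epha7 did not pass, Epha6 had 0 reads in all 19 libraries, and Epha8 had reads in 1 EpCAM+ library only.

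Ephrin-B ligands and EphB receptors differed less. Efnb1 had medians of 16.3 TPM in PDPN+ and 17.1 TPM in EpCAM+ libraries (log2 difference 0.54 ± 0.23, edgeR adjusted p = 0.063). Efnb2, the arterial ephrin, was lower in PDPN+ cells (0.0228 to 7.91 TPM against 6.51 to 13.0 TPM; log2 difference -2.03 ± 0.74, edgeR adjusted p = 0.030; 0.0510 without the PDPN+ neratinib library of mouse N53180 and 0.0543 without the 3 EpCAM+ libraries set apart). Of the EphB receptors, Ephb1 passed in the PDPN+ direction (7.41 ± 1.37, edgeR adjusted p = 1.9e-04). It lay above the EpCAM+ range in 5 of 8 PDPN+ libraries, with 6.63 TPM as the highest, and had 0 reads in 8 of 11 EpCAM+ libraries. Ephb2, Ephb3, Ephb4 and Ephb6 did not pass, with log2 differences from -1.70 to 0.43.

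The netrins were low. Ntn1 held 12.2, 1.14, 2.07 and 0 TPM in PDPN+ vehicle libraries (mice V53175, V53179, V53185 and V53188), 0.187, 5.37, 1.20 and 2.15 TPM in neratinib libraries (mice N53178, N53180, N53184 and N53194), and 0.0730 to 1.56 TPM in EpCAM+ libraries. In 4 PDPN+ libraries it lay above the EpCAM+ range. All 3 netrins tested were higher in PDPN+ cells: Ntn1 by 2.43 ± 0.85 (edgeR adjusted p = 0.024), Ntn3 by 5.10 ± 1.20 (adjusted p = 1.7e-03) and Ntn4, a basement membrane netrin, by 2.16 ± 0.67 (adjusted p = 0.011), as log2 differences. None passed with the mouse block (edgeR adjusted p = 0.61, 0.29 and 0.30). Ntn1 also depended on the vehicle library of mouse V53175 (log2 difference 1.30 without it, adjusted p = 0.18) and the neratinib library of mouse N53180 (adjusted p = 0.072 without it). Ntn4 depended on the neratinib library of mouse N53180, which held 4.05 TPM (log2 difference 1.11 without it, adjusted p = 0.12). Without the 3 EpCAM+ libraries set apart, the adjusted p was 0.083 for Ntn1 and 0.054 for Ntn4. Ntn5 had reads in 1 PDPN+ library only.

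Among the netrin receptors, Unc5b was present in both populations, from 0.688 through 2.78 to 17.3 TPM in PDPN+ and from 4.48 through 7.77 to 9.02 TPM in EpCAM+ libraries (log2 difference -0.21 ± 0.40, edgeR adjusted p = 0.70). Unc5a passed in the PDPN+ direction (6.71 ± 1.31, edgeR adjusted p = 3.2e-04) with a median of 0.109 TPM and a highest library of 3.89 TPM. Unc5c did not pass, and Unc5d had 0 reads in all PDPN+ libraries and at most 0.00362 TPM in EpCAM+ libraries.

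To set ligands beside receptors, 90 textbook ligand and receptor pairs among these genes were read at a mean of at least 1 TPM for each partner. Both partners were in PDPN+ cells for 51 pairs, the ligand in PDPN+ and the receptor in EpCAM+ cells for 44, the ligand in EpCAM+ and the receptor in PDPN+ cells for 40, and both in EpCAM+ cells for 35. At 2 TPM the order changed: 32 pairs had both partners in PDPN+ cells and 34 had the ligand in PDPN+ and the receptor in EpCAM+ cells. A pair can count in all 4 directions, and pairs share genes. Of the 6 Slit and Robo pairs, 2 reached this level with the receptor in PDPN+ cells for ligands of either population, and none with the receptor in EpCAM+ cells. Both rest on the Robo1 mean of 1.44 TPM in PDPN+ cells, which was 0.877 TPM without the neratinib library of mouse N53180, and at 2 TPM 0 of the 6 pairs were counted in any direction. Where both partners passed the population test, 7 pairs were higher in PDPN+ cells on both sides, among them Sema3a with Nrp1 and Plxna4, Sema6b with Plxna4, Slit3 with Robo1, and Efna2 and Efna5 with Epha3. Both partners were lower there in 10, among them Sema3c with Nrp2 and the ligands Efna1, Efna3 and Efna4 with Epha1 and Epha2. The calls of Epha1 and Sema3c were lost on leaving out any of 15 and any of 12 libraries. The rest of the 10 were Sema4d and Sema4g with Plxnb2, and Slit1 with Robo2. Plxnb2 did not pass with the length offset (edgeR adjusted p = 0.84), and Robo2 never exceeded 0.710 TPM. In 7 pairs the ligand was higher and the receptor lower in PDPN+ cells, such as Efna5 with Epha2, and in 6 the ligand was lower and the receptor higher, such as Efna1 with Epha3, Slit1 with Robo1 and Sema3c with Nrp1. These are RNA levels of sorted populations and give no measure of binding.

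Other genes of these pathways came from 4 lists that hold 57 genes, of which 52 were tested, 21 were higher in PDPN+ cells and 11 were lower, where the background over all genes was 24.3% higher and 25.0% lower. Of the 10 netrin and repulsive guidance partners, 5 of 6 tested were higher in PDPN+ cells. Neo1, the receptor neogenin, did not pass (log2 difference 0.04 ± 0.46, edgeR adjusted p = 0.95), and Dcc had at most 0.0110 TPM in any library. Of the 22 tested semaphorin partners and plexin effectors, 9 were higher and 2 lower. Rnd1, a small GTPase that binds plexins, was at 3.49 to 66.7 TPM in PDPN+ and 2.05 to 3.17 TPM in EpCAM+ libraries (4.51 ± 0.38, edgeR adjusted p = 2.2e-08). Dpysl3, a collapsin response mediator, was at 24.6 to 143 and 0.997 to 18.96 TPM (3.96 ± 0.46, adjusted p = 1.0e-06), and Fyn, a tyrosine kinase, differed by 4.22 ± 0.74 (adjusted p = 1.1e-04). L1cam, an adhesion partner of neuropilin-1, was lower (-6.10 ± 0.64, edgeR adjusted p = 3.3e-07), as was Gipc1, a neuropilin-binding adaptor (-1.44 ± 0.22, adjusted p = 2.0e-05).

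Of the 12 Eph and ephrin effectors, 5 were higher in PDPN+ cells and 4 lower. Pdzrn3 was at 13.2 to 25.9 TPM in PDPN+ and at most 0.0501 TPM in EpCAM+ libraries (11.31 ± 0.56, edgeR adjusted p = 1.7e-11), and Grb10, an adaptor of tyrosine kinase receptors, at 58.0 to 152 and 0.309 to 1.34 TPM (7.69 ± 0.50, adjusted p = 6.0e-10). Ngef, the exchange factor ephexin, was lower (-4.56 ± 0.90, edgeR adjusted p = 3.4e-04). Adam10, the protease that cleaves ephrin-A ligands, was also lower (-0.81 ± 0.19, adjusted p = 1.6e-03). Of the 12 Slit and Robo effectors, 2 were higher and 5 lower. Srgap1, a GTPase-activating protein that binds Robo, was higher (1.72 ± 0.35, edgeR adjusted p = 4.0e-04). The Robo co-receptor Flrt3 was lower (-7.93 ± 0.86, adjusted p = 5.1e-07), with 64.2 to 163 TPM in EpCAM+ and 0 to 4.31 TPM in PDPN+ libraries. Sdc1, a heparan sulphate proteoglycan, was lower as well (-3.78 ± 0.40, edgeR adjusted p = 4.0e-07).

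Within the EpCAM+ libraries, 17 of the 37 genes with a mean of at least 1 TPM lay lower in all 3 libraries set apart than in all 8 others, none lay higher, and 20 overlapped. Over all 13362 genes with such a mean, 20.5% lay lower in all 3 and 9.14% higher. Those 3 had been set apart on transcriptome-wide values of the same libraries, so this is a description and carries no test. The 17 included Epha2 (19.5 to 31.5 against 61.4 to 104 TPM), Sema4a (22.7 to 27.5 against 69.1 to 159 TPM), Plxnb2 (100 to 104 against 191 to 279 TPM), Nrp2 (2.69 to 3.21 against 5.19 to 15.1 TPM) and Plxnb1 (0.572 to 1.19 against 4.75 to 5.98 TPM). The ephrin-A ligands did not follow: Efna1 held 111 to 180 TPM in the 3 libraries and 110 to 226 TPM in the 8, and Efna5 22.1 to 32.6 and 24.4 to 33.7 TPM. Sema3c held 38.5 to 67.6 and 24.1 to 44.0 TPM.

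The neratinib and vehicle libraries of each population were then set against each other. In PDPN+ cells, 0 of 53 guidance genes tested passed (edgeR; background 0%), and 0 had an unadjusted p under 0.05; over all 14437 genes, 0 passed and 331 had an unadjusted p under 0.05. The log2 differences ran from -2.06 to 2.54 with a median standard error of 1.18. In EpCAM+ cells, 0 of 54 passed (edgeR; background 0%) and 1 had an unadjusted p under 0.05; over all 17200 genes, 0 passed and 524 had an unadjusted p under 0.05. There the log2 differences ran from -1.62 to 1.36 with a median standard error of 0.46. DESeq2 called 1 guidance gene in PDPN+ cells, Sema5b, which had reads only in the 2 vehicle libraries named above (background 0.359%), and 0 in EpCAM+ cells (background 0.0539%). These standard errors are not a limit of detection. A difference well above its own standard error could still fail to pass, such as Epha7 in EpCAM+ cells (-1.62 ± 0.68). A gene that did not pass may therefore still differ.

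The genes with the smallest unadjusted p were small in level or in difference. In PDPN+ cells these were Epha5 (2.34 ± 1.12; 0.00651 to 0.0898 TPM with vehicle and 0.0555 to 0.471 TPM with neratinib), Plxnb2 (0.57 ± 0.41; 71.0 to 184 and 129 to 189 TPM) and Sema5a (-0.78 ± 0.56; 3.95 to 16.0 and 3.71 to 8.45 TPM), each with an edgeR adjusted p of 1.0. The groups overlapped in all 3. In EpCAM+ cells they were Epha7 (-1.62 ± 0.68; 0.468 to 6.66 and 0.267 to 1.17 TPM), Sema6d (-0.89 ± 0.61; 0.325 to 1.65 and 0.0274 to 0.789 TPM) and Sema3f (-0.30 ± 0.21; 2.93 to 5.37 and 2.42 to 5.03 TPM), again with overlap and an edgeR adjusted p of 1.0. Of the genes with a high level in EpCAM+ cells, Plxnb2 held 100 to 245 TPM with vehicle and 104 to 279 TPM with neratinib (0.35 ± 0.61), Efna1 111 to 226 and 110 to 180 TPM (-0.12 ± 0.20), Sema4a 24.8 to 101 and 22.7 to 159 TPM (0.49 ± 0.47), and Sema4g 4.34 to 29.0 and 5.77 to 42.6 TPM (0.68 ± 0.57), all with overlap and an edgeR adjusted p of 1.0. Of the 3 EpCAM+ libraries set apart, 2 are vehicle and 1 is neratinib; without them 0 of 53 guidance genes passed (edgeR; background 0%) and 4 had an unadjusted p under 0.05.

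**Figure D5:**
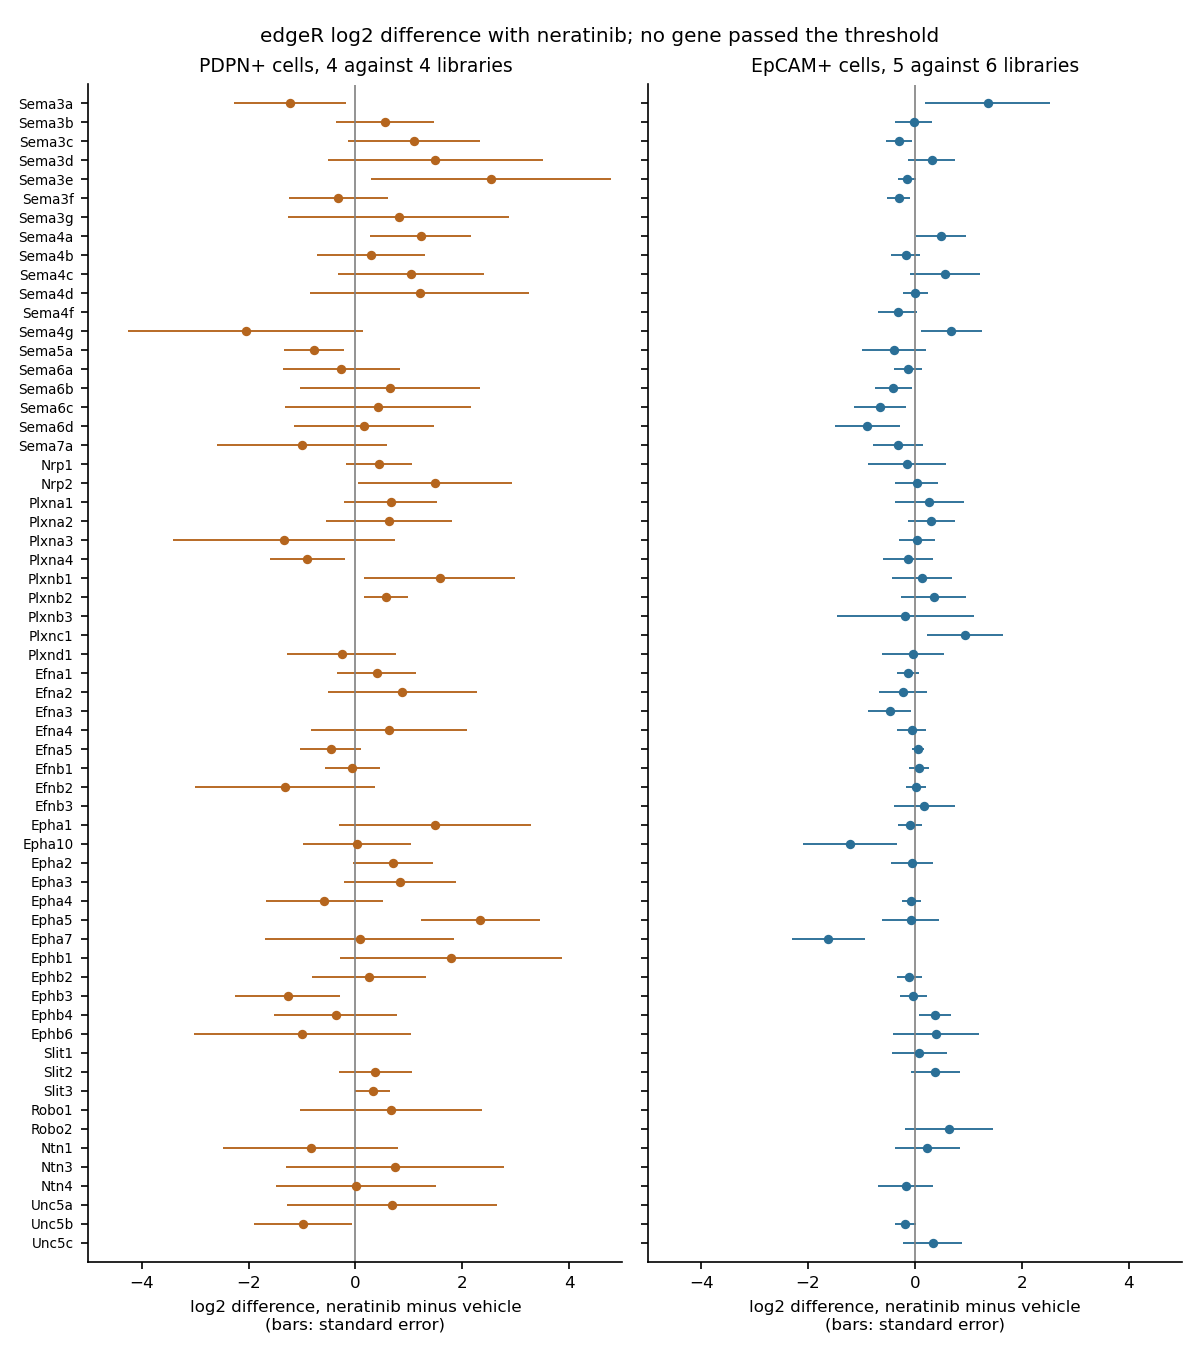
Log2 difference of neratinib minus vehicle (edgeR) with its standard error in PDPN+ cells (left, 53 genes) and EpCAM+ cells (right, 54 genes). No gene passed the threshold in either population, and the bars are longer in PDPN+ cells (median standard error 1.18) than in EpCAM+ cells (0.46).

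Whether neratinib acted differently in the populations was tested as an interaction over all 19 libraries. Of the 62 guidance genes tested, 0 passed (edgeR; background 0.0662%, 13 of 19626 genes) and 6 had an unadjusted p under 0.05. With the mouse number as a block, 0 of 61 passed (background 0%) and 1 had an unadjusted p under 0.05. The smallest were Slit1 (-7.95 ± 2.28, edgeR adjusted p = 0.18), Efna3 (5.45 ± 1.86, adjusted p = 0.22) and Plxnb3 (8.89 ± 3.15, adjusted p = 0.25). Each rests on PDPN+ libraries with few or no reads: Slit1 was read there in 2 vehicle libraries only, Efna3 was above 1 TPM only in the neratinib library of mouse N53178, and Plxnb3 never exceeded 0.802 TPM. DESeq2 called 3 (Slit1, Efna3 and Sema5b; background 3.03%). With edgeR, Slit1 passed without the 2 PDPN+ vehicle libraries set apart (adjusted p = 0.046). Sema3e passed without the PDPN+ vehicle library of mouse V53185 (adjusted p = 0.031), the vehicle library that held 2.25 TPM of it where the other 3 held at most 0.00984 TPM.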

How the data were processed

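RNA of sorted cells was made into libraries with a low-input kit whose cDNA and final PCR cycles varied with the amount of RNA, per the labels' protocols; no label says which library had which number. The authors deposited Salmon estimated counts and TPM for 147828 transcripts per library, with Salmon 1.9.0 and the build GRCm39 (mm39), per the submitters' processing notes. The sources used here give neither the strand setting nor the annotation release. Genes that overlap or share sequence are therefore uncertain.

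Estimated counts and TPM, as deposited, were summed per gene through GENCODE M21 transcript names (GRCm38, used for names and gene order only), which matched 137063 transcripts; the other 10765 held 1.77 to 8.96% of a library's reads and were left out. Summed counts were rounded and tested with the quasi-likelihood test of edgeR 4.0.16 in R 4.3.3, after TMM scaling and edgeR's default filter on low counts, with a robust fit and Benjamini-Hochberg adjustment over all genes tested (threshold 0.05). The population test used all 19 libraries, with treatment in the model. Each neratinib test used 1 population. Standard errors of edgeR differences were not taken from the fit. They are the absolute log2 difference divided by the square root of the quasi-likelihood F statistic. Alternatives were DESeq2 1.42.0, limma 3.58.1 on log2(TPM + 1) and log2(TPM + 0.1), no filter, other scaling, transcript length offsets, a covariate taken from a digit in the names of the deposited files, the mouse number as a block, 1 treatment only, and leaving out libraries. Fits with the mouse block used only the 8 mice with both populations. The tests were tried on simulated data first.

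Guidance genes, partner and marker lists, pairs and alternatives were chosen with earlier results of these data known. Named genes were, per family and direction, up to 3 passing members with the largest difference and a mean of at least 1 TPM, the member with the highest level, and the 3 smallest p-values of each neratinib test; partner genes needed 5 TPM. The mouse number was taken from the titles and read as the animal. Deviations from the group means of same-numbered PDPN+ and EpCAM+ libraries correlated at -0.165 to 0.0487 over 8 mice. Promoters came from RefSeq (GRCm38.p6).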

Additional observations from a re-analysis of the deposited data

Results flagged for a closer look

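In 8 of 90 groups of libraries examined for the 35 named guidance genes, 1 library lay far above the others of its group. This used Dixon's criterion at the 95% level on untransformed TPM. Chance gives about 1 group in 20 only for normally distributed values, which was not checked here, so the count carries no test. In PDPN+ neratinib libraries, mouse N53178 held 9.78 TPM of Efna3 (others 0 to 0.701 TPM) and 10.3 TPM of Plxnc1 (others 0 to 0.0349 TPM), and mouse N53180 held 4.05 TPM of Ntn4 (others 0.0719 to 0.576 TPM). Among PDPN+ vehicle libraries, mouse V53175 held 12.2 TPM of Ntn1 (others 0 to 2.07 TPM) and 18.4 TPM of Sema3f (others 3.48 to 4.05 TPM). Of the EpCAM+ vehicle libraries, mouse V53192 held 7.25 TPM of Epha1 (others 3.26 to 4.31 TPM), mouse V53185 held 67.1 TPM of Sema3e (others 33.4 to 42.3 TPM), and mouse V53179 held 15.2 TPM of Slit1 (others 3.68 to 5.93 TPM).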

How the results depend on the processing

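Over the 40 tests of named guidance genes, 1064 of 1182 alternative values kept their direction and their side of the threshold, 110 lost the call (19 genes), 5 gained it (3 genes) and 3 changed sign. The sign changed for Sema5a with neratinib in PDPN+ cells (0.13 without the 2 PDPN+ vehicle libraries set apart) and for Unc5b between populations (0.82 with the file code digit as a covariate, 0.27 in vehicle libraries only), none of them past the threshold. The 20 guidance genes higher in PDPN+ cells, of 62 tested, became 11 of 50 on log2(TPM + 1) and 11 of 50 on log2(TPM + 0.1). They became 12 of 67 with no filter in limma and 13 of 62 with the file code digit. In vehicle libraries only, 11 of 56 were higher, and in neratinib libraries only 10 of 52. The 17 lower became 26 of 50 on log2(TPM + 0.1), 6 of 62 with the digit, 11 of 56 in vehicle and 10 of 52 in neratinib libraries only. Over all 15632 genes on log2(TPM + 0.1), 2553 were higher and 7742 lower. With no filter in limma, 3390 of 36486 genes were higher, and with the digit 11.6% were higher and 9.85% lower. In vehicle libraries only, 2834 of 17601 genes were higher and 2587 lower. The neratinib libraries gave 2822 and 3016 of 16858. With the replicate block (mouse) 13 were higher and 14 lower; same-numbered libraries did not deviate together, so the pairing rests on the titles. Leaving out 1 library at a time gave 17 to 22 higher and 14 to 20 lower. Some of the lost calls are genes that a fit left untested, and otherwise the cause was not tested. Tests of 1 treatment use fewer libraries and tested fewer guidance genes. For neratinib, DESeq2 called 1 guidance gene in PDPN+ cells and 3 by the interaction, where leaving out the 2 PDPN+ vehicle libraries gave 1 and leaving out 1 library gave 0 to 1. Within a population each mouse had 1 treatment, so the block cannot enter those neratinib tests; in the interaction, the replicate block (mouse) left 0 guidance genes past the threshold. At 0.5 TPM, 3 genes were in EpCAM+ cells only and 9 in neither; at 2 TPM, 9 were in EpCAM+ cells only and the pairs with both partners in PDPN+ cells were 32, below the 34 with the receptor in EpCAM+ cells. At 5 TPM, 4 genes had different leading transcripts. Depth limits genes near 3 reads a library, chiefly in PDPN+ cells.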
